A study of Mus musculus with 6 samples.

Results

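The intestinal epithelium secretes proteins that kill or bind microbes, and 9 mouse genes for such proteins are described here: Lyz1, Lyz2, Pla2g2a, Mptx2, Ang4, Mmp7, Itln1, Reg3b and Reg3g. They were chosen by symbol from the 23845 genes of the deposited table of estimated counts, and each had a row there. Earlier results of these data were known when they were chosen, so values given beside those of all genes are descriptions. RNA was sequenced in 6 libraries of intestinal epithelial cells that form 3 groups of 2, in a study of how the dose of Neurog3 affects enteroendocrine progenitors. Neurog3 is the transcription factor that commits gut progenitors to the hormone-secreting lineage.

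EYFP cells carried the genotype Neurog3+/+EYFP on a mixed background of C57BL6 and CD1. EGFP cells carried Neurog3+/-EGFP on C57BL6. WT cells were wild type on C57BL6, their titles point to duodenum, and the labels do not describe them as sorted for a reporter. The series' design text says that Neurog3-expressing cells of both reporter lines were collected by FACS. The sources used here do not give the gut segment of the reporter cells, the gates, the age of the mice or how many mice went into a library. Nothing in the labels says that the 2 libraries of a group came from separate animals, so the p-values below measure the spread between these libraries, which may be technical. Reporter, genotype and strain differed together between EYFP and EGFP cells, so their parts cannot be told apart. WT cells differed from EGFP cells in reporter, genotype and perhaps sorting, and from EYFP cells in strain as well. These parts cannot be told apart in the comparisons with WT cells either.

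Paneth cells sit at the base of small intestinal crypts and release granules of lysozyme, defensins and other antimicrobial proteins into the crypt lumen. The Reg3 lectins have a wider source, since enterocytes also make them, and their genes are known to respond to microbes through MyD88 and to interleukin 22 through STAT3. Neurog3-expressing progenitors, goblet cells and Paneth cells belong to the secretory branch of the epithelium, which separates from absorptive cells under Notch control.

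Lyz1 and Lyz2 encode the lysozymes of mouse and lie side by side on chromosome 10, minus strand, with Lyz1 at 117287797 to 117292868 and Lyz2 at 117277331 to 117282321 (mm10, GENCODE annotation, 4 exons each). Lysozyme cleaves the peptidoglycan of bacterial walls, and in mouse Lyz1 is the Paneth cell gene while Lyz2 is expressed by macrophages and other myeloid cells. Their coding sequences were identical at 422 of 444 bases (95.0%), with a longest identical run of 118 bases. Of the 1214 windows of 50 bases in the Lyz1 transcript, the length of the reads, 195 (16.1%) also occurred in Lyz2, so that reads from these windows were divided between both genes by estimate. The start of the coding sequence is shown because it carries differences that tell the genes apart. The bases below are the first 120 coding bases of each GENCODE transcript, on the coding strand, with the 11 bases that differ in capitals.
Lyz1: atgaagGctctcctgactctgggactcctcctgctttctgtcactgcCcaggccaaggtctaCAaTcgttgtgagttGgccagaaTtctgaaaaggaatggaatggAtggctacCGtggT
Lyz2: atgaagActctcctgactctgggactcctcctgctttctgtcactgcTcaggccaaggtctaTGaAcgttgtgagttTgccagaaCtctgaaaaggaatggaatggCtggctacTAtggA

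Reg3b and Reg3g encode secreted C-type lectins that bind bacteria, and lie on chromosome 6 at 78370657 to 78373466 on the plus strand and at 78466269 to 78468872 on the minus strand (mm10, GENCODE, 6 exons each). Their coding sequences were identical at 399 of 522 bases (76.4%), and no window of 50 bases occurred in both transcripts. The sequences below are the 250 bases upstream of each gene start from RefSeq (GRCm38.p6), which lie at chr6:78370635-78370884 on the plus strand for Reg3b and at chr6:78468875-78469124 on the minus strand for Reg3g. They are shown because both genes differed widely between the EGFP libraries and lay close to each other in pattern over the 6 libraries. Capitals mark matches, on either strand and with no overlap between motifs, to a STAT motif (TTCNNNGAA), a TCF motif (CTTTGAT) or a TATA box (TATAAA).
Reg3b: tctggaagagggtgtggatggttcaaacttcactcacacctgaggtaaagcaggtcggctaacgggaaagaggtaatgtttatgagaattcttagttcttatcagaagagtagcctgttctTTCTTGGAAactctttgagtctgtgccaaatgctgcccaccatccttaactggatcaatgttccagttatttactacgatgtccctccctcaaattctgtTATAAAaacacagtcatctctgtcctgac
Reg3g: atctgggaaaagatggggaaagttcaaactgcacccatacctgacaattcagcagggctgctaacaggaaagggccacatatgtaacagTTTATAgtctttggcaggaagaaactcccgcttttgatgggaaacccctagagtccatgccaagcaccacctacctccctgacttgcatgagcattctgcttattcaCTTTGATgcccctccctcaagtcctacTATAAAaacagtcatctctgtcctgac

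The Reg3b promoter held 1 STAT match, 129 bases before the RefSeq gene start at 78370885, and 1 TATA match at 29 bases. That start lies downstream of the GENCODE start of Reg3b, so the window overlaps the GENCODE gene. The Reg3g promoter held 1 TCF match at 54 bases and TATA matches at 161 and 27 bases, and none of the letters of the STAT motif. Among 32851 RefSeq promoters of 250 bases, 7.02% held the STAT motif, 3.21% the TCF motif and 12.4% the TATA motif. The windows of Reg3b and Reg3g were identical at 173 of 247 aligned bases (70.0%), and those of Lyz1 and Lyz2 at 200 of 248 (80.6%). Of the other members with an entry, Ang4 had 1 STAT match and Mmp7 had 2 TATA matches. These matches describe letters in the window and were not tested for binding.

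Total estimated counts ranged from 7938358 to 20589683 per library, and 13935 of the 23845 genes passed a filter on low counts, among them all 9 antimicrobial genes. Levels below are in CPM, the counts of a gene per 1000000 counts of the scaled library total, and 1 count equalled 0.0603 to 0.121 CPM. Neurog3 was at 563 and 348 CPM in EYFP cells, at 120 and 179 CPM in EGFP cells and at 6.0 and 6.39 CPM in WT cells. The epithelial marker Epcam was at 575 to 658 CPM in EYFP cells, at 1110 to 1117 CPM in EGFP cells and at 1608 to 1612 CPM in WT cells. Xist was at 0.634 to 2.36 CPM in EYFP cells and at 966 to 969 CPM in EGFP cells, while WT 1 had 1.17 CPM and WT 2 had 726 CPM. The Y-linked gene Ddx3y was at 37.3 to 39.3 CPM in EYFP cells, at 0 in EGFP cells, at 62.4 CPM in WT 1 and at 0.121 CPM in WT 2. Every difference between EYFP and EGFP cells is therefore also one between libraries without and with high Xist. The same holds for every difference between WT 1 and WT 2, such as that of Ang4 below. In the comparisons with WT cells, WT 1 differed from the EGFP libraries in Xist, and WT 2 from the EYFP libraries.

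Summed over the 9 genes, the level was 648 CPM in EYFP 1 and 252 CPM in EYFP 2, against 10927 CPM in EGFP 1 and 7959 CPM in EGFP 2, and 7068 CPM in WT 1 and 7969 CPM in WT 2. Both EYFP libraries lay below all of the other libraries, while the EGFP and WT libraries overlapped. In bulk RNA, fewer cells of a type and less RNA per cell cannot be told apart. Per kilobase of transcript, Lyz1 had the highest level of the 9 genes in 5 libraries, with 218 and 97.8 CPM per kb in EYFP cells, 3579 CPM per kb in EGFP 2 and 3318 and 2651 CPM per kb in WT cells. In EGFP 1, Reg3b stood above it, with 2800 CPM per kb against 2576 CPM per kb for Lyz1.

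**Figure D1:**
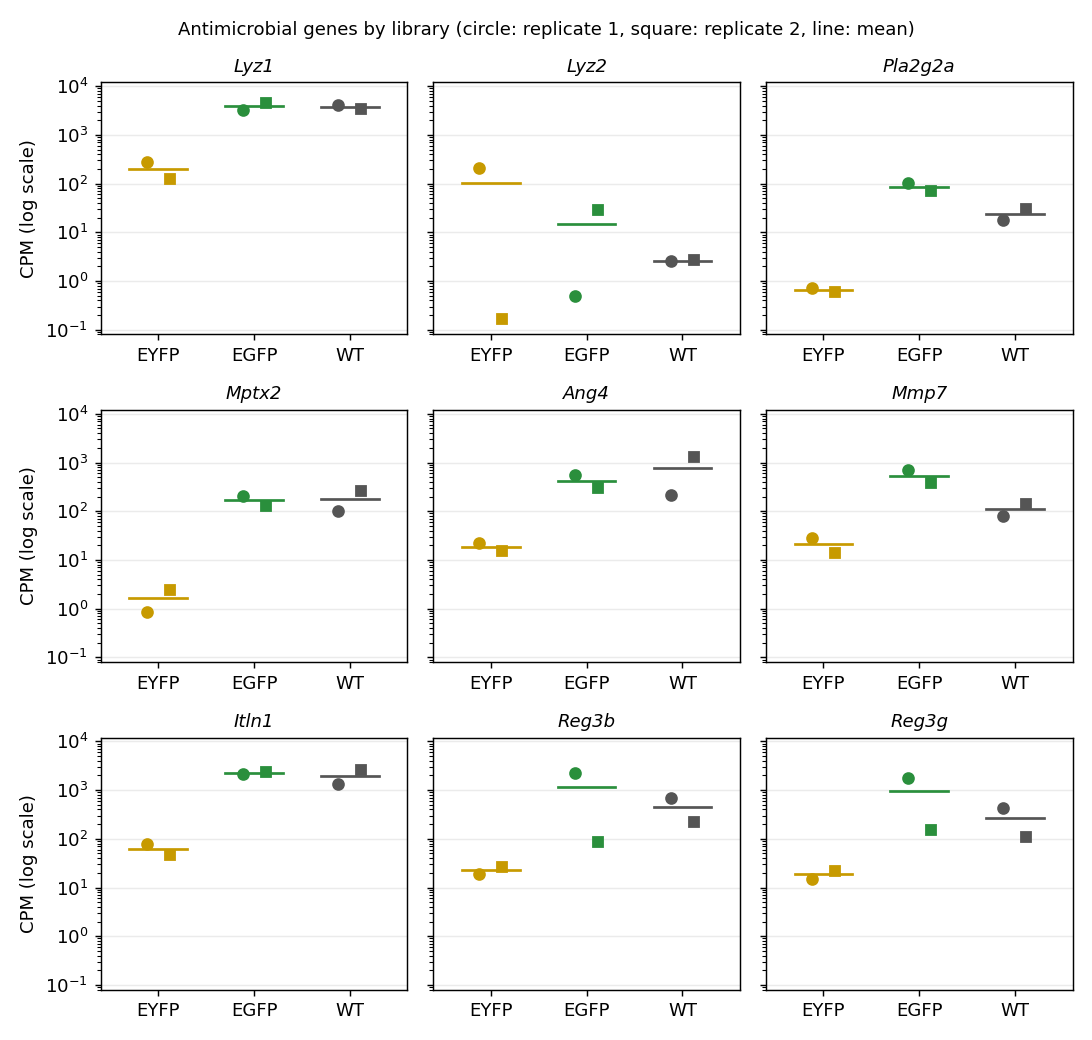
Level of each of the 9 antimicrobial genes in each library, in CPM on a log axis, with groups along the x axis; circles are replicate 1, squares replicate 2 and lines the mean of the 2. Pla2g2a lies below 1 CPM in both EYFP libraries, and the circle and square of Lyz2 stand far apart in EYFP and EGFP cells.

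Between EYFP and EGFP cells, 6 of the 9 genes fell and 0 rose, and the median log2 fold change of the 9 was -5.14, beside 0.01 for all genes tested. The 6 were Lyz1, Pla2g2a, Mptx2, Ang4, Mmp7 and Itln1. In edgeR's quasi-likelihood test with Benjamini-Hochberg adjustment over all genes at 0.05, 36.2% of the 13935 genes passed in either direction, 16.8% higher and 19.4% lower in EYFP cells. Lyz2, Reg3b and Reg3g did not pass.

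Lyz1 was at 275.8 and 123.6 CPM in EYFP cells, against 3253 and 4521 CPM in EGFP cells. It was lower in both EYFP libraries than in either EGFP library, with a log2 fold change of -4.28 ± 0.45 (SE; edgeR adjusted p = 0.000682), or 19.5-fold. Without EYFP 1 the value was -4.98. Pla2g2a encodes a secreted phospholipase that attacks bacterial membranes, and lies on chromosome 4 at 138831857 to 138835186, plus strand. GENCODE annotates it as a polymorphic pseudogene and RefSeq as a transcribed pseudogene in this reference, so its RNA level says nothing about protein. Pla2g2a was at 0.705 and 0.589 CPM in EYFP cells, which rest on 10 and 7 counts, against 104 and 69.3 CPM in EGFP cells. The groups did not overlap, and at -7.04 ± 0.41 it had the most negative value of the 9 genes (edgeR adjusted p = 0.000175).

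Mptx2 encodes a mucosal pentraxin of Paneth cells and lies on chromosome 1 at 173274382 to 173277777, minus strand. It was at 0.846 and 2.44 CPM in EYFP cells, against 209 and 126 CPM in EGFP cells. The groups did not overlap and the log2 fold change was -6.70 ± 0.81 (edgeR adjusted p = 0.00361), with -6.09 without EYFP 1 and -7.61 without EYFP 2. Its transcript shared 134 of 745 windows of 50 bases (18.0%) with its paralog Mptx1, which fell by 5.79 on the log2 scale (edgeR adjusted p = 0.0162), so the division of reads between them is uncertain. Itln1, which encodes an intelectin that binds microbial glycans, lies on the same strand at 171518122 to 171535294. It was at 79.1 and 47.1 CPM in EYFP cells, against 2151 and 2305 CPM in EGFP cells. The EGFP libraries lay close together and far above both EYFP libraries, at -5.14 ± 0.43 (edgeR adjusted p = 0.000367).

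Mmp7 encodes matrilysin, the protease that activates alpha-defensin precursors in mouse Paneth cells, and lies on chromosome 9 at 7692090 to 7699585, plus strand. It was at 28.4 and 14.1 CPM in EYFP cells, against 687 and 377 CPM in EGFP cells. Both EYFP libraries were lower, at -4.64 ± 0.54 (edgeR adjusted p = 0.00206), and without EYFP 1 the value was -5.23. Ang4, which encodes a ribonuclease with bactericidal activity, lies on chromosome 14 at 51763878 to 51773590, minus strand, and shared 31 of 660 windows of 50 bases (4.70%) with other genes. It was at 22.1 and 15.6 CPM in EYFP cells, against 552 and 298 CPM in EGFP cells. These groups did not overlap either, at -4.49 ± 1.02 (edgeR adjusted p = 0.0293). The call for Ang4 depended on each of the 4 libraries, since leaving out EYFP 1, EYFP 2, EGFP 1 or EGFP 2 gave adjusted p = 0.125, 0.148, 0.0739 and 0.0574, with values of -4.77, -4.27, -3.92 and -4.87.

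Reg3b was at 19.3 and 26.6 CPM in EYFP cells, against 2192 CPM in EGFP 1 and 84.1 CPM in EGFP 2. Reg3g was at 15.3 and 22.3 CPM in EYFP cells, against 1778 CPM in EGFP 1 and 151 CPM in EGFP 2. Every EYFP value lay below every EGFP value, but the EGFP libraries stood far apart. The fold changes were -5.63 ± 1.94 for Reg3b and -5.68 ± 1.67 for Reg3g, with edgeR adjusted p = 0.101 and 0.0688. Without EGFP 2 both genes passed, at -6.58 and -6.57 (edgeR adjusted p = 0.00533 and 0.0119). Without EGFP 1 neither passed, at -1.81 and -2.94 (edgeR adjusted p = 0.16 and 0.099). The authors' deposited table gives EYFP over EGFP ratios of 0.020 for Reg3b and 0.0193 for Reg3g, with adjusted p-values of 0.022 and 0.00481, and a DESeq2 Wald test on the counts also passed both, with adjusted p = 0.00149 and 0.00026. The call for these genes therefore differed between the tests.

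Lyz2 was at 206.6 CPM in EYFP 1 and 0.168 CPM in EYFP 2, where it had 2 counts, against 0.482 CPM in EGFP 1 and 29.3 CPM in EGFP 2. The groups overlapped, and 1 library of each was high. The log2 fold change was 2.75 ± 2.71 (edgeR adjusted p = 0.491), and -6.40 without EYFP 1. The authors' deposited table gives a ratio of 6.90 with an adjusted p-value of 0.549.

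**Figure D2:**
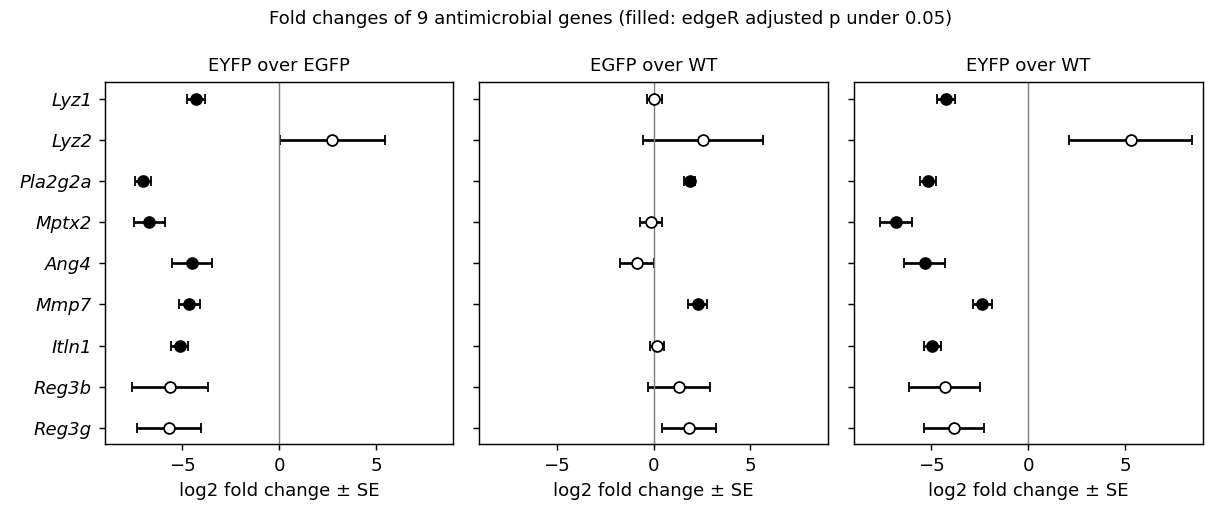
Log2 fold change with its SE for the 9 antimicrobial genes in 3 panels, EYFP over EGFP, EGFP over WT and EYFP over WT; filled points passed edgeR's test at an adjusted p under 0.05. In the panel of EYFP over EGFP the 6 filled points lie between -7.04 and -4.28, and the widest bar is that of Lyz2.

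Between EGFP and WT cells, 2 of the 9 genes rose and 0 fell, and the other 7 did not pass the test. Those that rose were Pla2g2a and Mmp7. Over all genes tested, 41.5% passed in either direction, 19.6% higher and 21.9% lower in EGFP cells. The median log2 fold change of the 9 genes was 1.32, beside 0.00 for all genes.

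Pla2g2a was at 104 and 69.3 CPM in EGFP cells, against 18.3 and 29.5 CPM in WT cells, and the groups did not overlap, at 1.85 ± 0.28 (edgeR adjusted p = 0.00174). Mmp7 was at 687 and 377 CPM in EGFP cells, against 79.1 and 140 CPM in WT cells, at 2.28 ± 0.48 (edgeR adjusted p = 0.0121). Both EGFP libraries were higher for Mmp7, but without WT 1 it no longer passed, at 1.92 (edgeR adjusted p = 0.0704), and with no filter on low counts its adjusted p was 0.0715. Lyz1 was at 3253 and 4521 CPM in EGFP cells, against 4191 and 3348 CPM in WT cells, so that the groups overlapped, at 0.04 ± 0.39. Itln1 was at 2151 and 2305 CPM in EGFP cells, against 1344 and 2552 CPM in WT cells, and also overlapped, at 0.19 ± 0.36. Mptx2 was at 209 and 126 CPM in EGFP cells and at 98.8 and 265 CPM in WT cells, at -0.12 ± 0.58.

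Ang4 was at 552 and 298 CPM in EGFP cells, against 218 CPM in WT 1 and 1299 CPM in WT 2. The WT libraries lay on both sides of the EGFP libraries, and the log2 fold change was -0.84 ± 0.88 (edgeR adjusted p = 0.507). Without WT 1 it was -1.61 and passed (edgeR adjusted p = 0.0282), and without WT 2 it was 0.96 (edgeR adjusted p = 0.164). Reg3b was at 2192 and 84.1 CPM in EGFP cells, against 688 and 224 CPM in WT cells, and Reg3g was at 1778 and 151 CPM in EGFP cells, against 427 and 109 CPM in WT cells. Both groups overlapped, with EGFP 1 above and EGFP 2 below WT 1. Their fold changes were 1.32 ± 1.60 and 1.85 ± 1.39 (edgeR adjusted p = 0.573 and 0.372), and without EGFP 1 they were -2.36 and -0.76. Lyz2 was at 0.482 and 29.3 CPM in EGFP cells, on both sides of the 2.58 and 2.65 CPM in WT cells, at 2.55 ± 3.07 (edgeR adjusted p = 0.574) and -2.42 without EGFP 2.

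Between EYFP and WT cells, 6 of the 9 genes fell and 0 rose, beside 33.5% lower and 27.1% higher among all genes tested (60.6% in either direction). The median log2 fold change of the 9 was -4.31, beside -0.12 for all genes. This comparison shares its EYFP libraries with the comparison to EGFP cells, so its values are not a repeat of it. The 6 were Lyz1 at -4.24 ± 0.45, Pla2g2a at -5.18 ± 0.40, Mptx2 at -6.82 ± 0.81, Ang4 at -5.33 ± 1.06, Mmp7 at -2.36 ± 0.49 and Itln1 at -4.95 ± 0.43, with edgeR adjusted p between 4.24e-05 and 0.0111. Ang4 no longer passed without EYFP 1 or EYFP 2, with adjusted p = 0.0624 and 0.0738, and stood at -3.53 without WT 2 and -6.11 without WT 1. Leaving out EYFP 1 moved Lyz1 to -4.93 and Mmp7 to -2.96. Mptx2 was at -6.22 without EYFP 1, -7.73 without EYFP 2 and -5.94 without WT 2. Reg3b at -4.31 ± 1.82 and Reg3g at -3.84 ± 1.53 did not pass (edgeR adjusted p = 0.117 and 0.101). For both genes every EYFP value lay below every WT value, which with 2 libraries a group does not replace the test. How many of all genes separate in this way was not counted. Without EGFP 1, whose spread from EGFP 2 enters the shared estimate, both passed (edgeR adjusted p = 0.00648 and 0.0207), as they did without EGFP 2, in a fit to the 4 EYFP and WT libraries and in the DESeq2 Wald test. Lyz2 was at 5.30 ± 3.18 (edgeR adjusted p = 0.235), and at -3.88 without EYFP 1.

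Within groups, the members differed in how close the 2 libraries lay. In EYFP cells the libraries differed by 9.30 log2 units for Lyz2 (prior count 2), the largest difference of the 13935 genes tested, while the other 8 genes differed by 0.21 to 1.37. In EGFP cells Lyz2 differed by 5.52, Reg3b by 4.70 and Reg3g by 3.56 log2 units, and 12, 14 and 32 of the 13935 genes differed by as much or more. The other 6 genes differed by 0.10 to 0.89 there. In WT cells the largest difference among the 9 was that of Ang4, at 2.57 log2 units, which 50 genes reached. The median over all genes was 0.20 in EYFP, 0.21 in EGFP and 0.27 in WT cells.

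**Figure D3:**
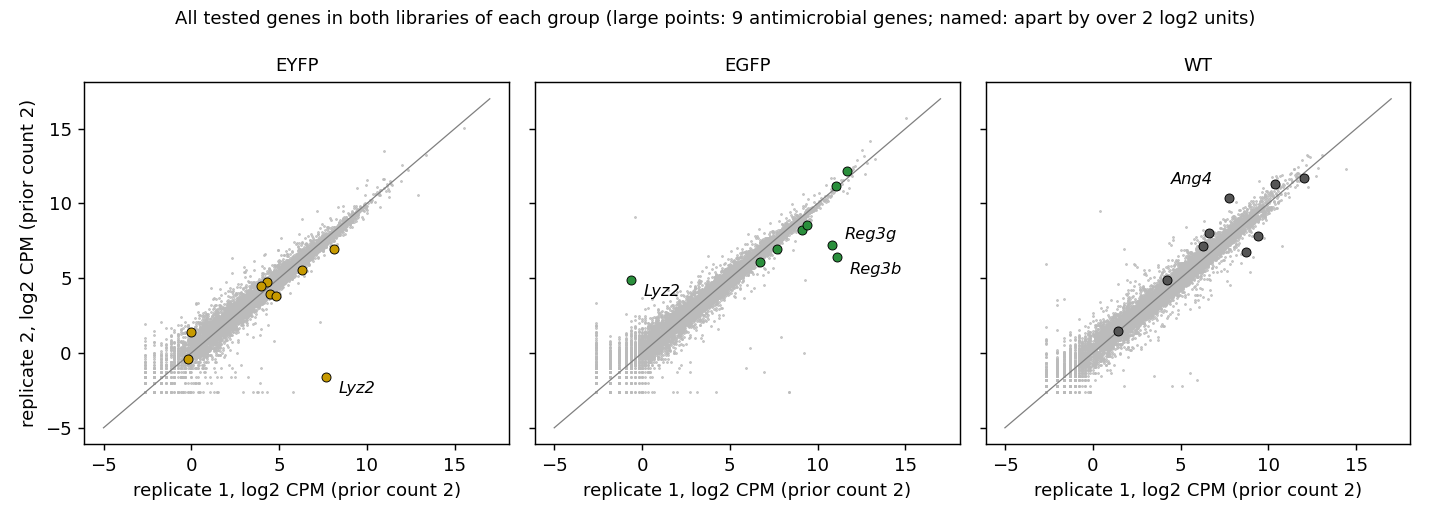
Replicate 2 against replicate 1 for all 13935 tested genes in EYFP, EGFP and WT cells, in log2 CPM with a prior count of 2; large points are the 9 antimicrobial genes and the line marks equal values. Named points differ by over 2 log2 units: Lyz2 in EYFP cells, Lyz2, Reg3b and Reg3g in EGFP cells and Ang4 in WT cells.

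Of the macrophage genes measured, some had the order of Lyz2 within EYFP and EGFP cells and others did not. Csf1r, the macrophage growth factor receptor, was at 19.3 CPM in EYFP 1 and 0 in EYFP 2, at 0 in EGFP 1 and 3.30 CPM in EGFP 2, and at 0.666 and 1.75 CPM in WT cells. C1qb, a complement subunit made by macrophages, was at 13.9 CPM in EYFP 1 and 0 in EYFP 2, at 0 in EGFP 1 and 2.11 CPM in EGFP 2, and at 0.583 and 1.09 CPM in WT cells. C1qc had the same order of libraries in EYFP and EGFP cells, at 15.7 and 0.336 CPM in EYFP cells and at 0 and 1.27 CPM in EGFP cells. C1qa also had this order within each group, at 32.9 and 15.1 CPM in EYFP cells and at 4.10 and 6.76 CPM in EGFP cells. Across groups, however, C1qa was higher in EYFP 2, where Lyz2 was low, than in EGFP 2, where Lyz2 was high. The order differed for other markers, since Cd68 was at 4.37 and 2.44 CPM in EYFP cells and at 2.89 and 1.52 CPM in EGFP cells, and Itgam at 2.26 and 2.27 CPM in EYFP cells and at 12.8 and 10.9 CPM in EGFP cells. These markers were picked after their values were seen. The list of 16 macrophage and neutrophil markers had 15 rows, 7 of them tested. Between EYFP and EGFP cells C1qa rose, Itgam and Cd14 fell and 4 did not pass, beside 36.2% of all genes called. The summed level of the 15 was 96.6 and 23.8 CPM in EYFP cells, 30.4 and 40.6 CPM in EGFP cells and 37.9 and 32.5 CPM in WT cells. The first marker of that list, Adgre1 (Emr1 in the table), was at 0.987 and 0 CPM in EYFP cells, at 0.241 and 0 CPM in EGFP cells and at 0.833 and 0.663 CPM in WT cells, and the neutrophil genes Ngp and Elane were at 0 in all 6 libraries. The part of macrophages in the Lyz2 level was not tested.

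**Figure D4:**
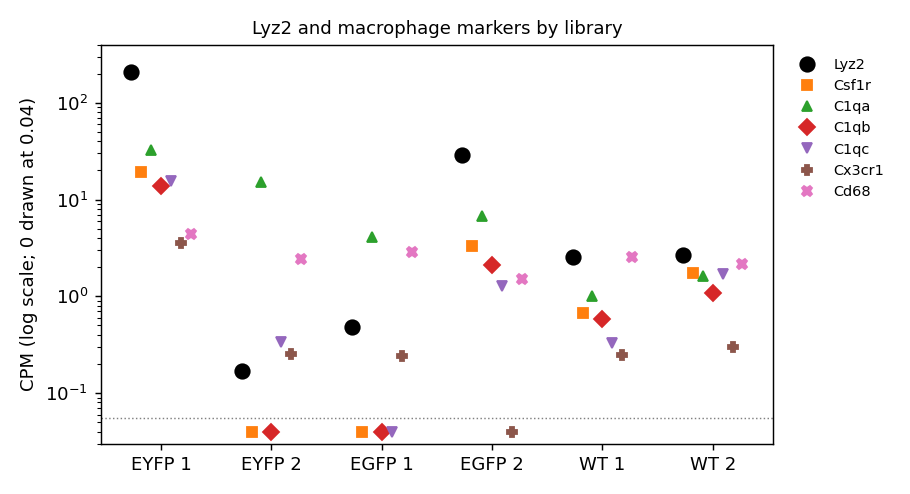
Level of Lyz2 (black circles) and of 6 macrophage markers in each of the 6 libraries, in CPM on a log axis. A level of 0 is drawn below the dotted line. The markers were picked after their values were seen, and Itgam and Cd14 are not drawn. Lyz2 is at 206.6 CPM in EYFP 1 and 29.3 CPM in EGFP 2. In these libraries Csf1r, C1qa, C1qb and C1qc are also highest within their groups. Cd68 and Cx3cr1 are higher in EYFP 1 than in EYFP 2, but also higher in EGFP 1 than in EGFP 2, where Cx3cr1 rests on 2 and 0 counts.

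Genes with the most similar pattern were found by the root mean square difference of centred log2 CPM over the 6 libraries, and the values are descriptions. Itln1 was nearest to the alpha-defensin genes Defa17 (0.17 log2 units), Defa24 (0.35) and Defa26 (0.38), and Lyz1 to Mmp28 (0.36), Defa17 (0.52) and Defa26 (0.53). Pla2g2a was nearest to Defa22 (0.55), Defa5 (0.60) and Ccl6 (0.63), and Mptx2 to Defa24 (0.95), Defa5 (0.96) and Ifi27l2b (0.98). Ang4 was nearest to Duox2 (0.31) and Duoxa2 (0.34), which encode an epithelial oxidase that makes hydrogen peroxide and its maturation factor, and then to Gsdmc3 (0.67). Reg3b was nearest to Defa2 (0.51), Slc10a3-ubl4 (1.04) and Fam129a (1.12), and Reg3g to Defa2 (0.70), Pla2g5 (0.95) and Fam129a (0.96). An alpha-defensin was thus among the 3 nearest genes of Itln1, Lyz1, Pla2g2a, Mptx2, Reg3b and Reg3g. Lyz2 was nearest to Il22ra2 (0.85), Gpnmb (1.02) and Csf1r (1.02). Within the 9 genes the closest pairs were Itln1 with Lyz1 (0.52) and Reg3b with Reg3g (0.58), while Lyz2 stood 3.83 or more from each of the others.

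The alpha-defensins are the microbicidal peptides of Paneth cell granules that Mmp7 activates in mouse. Of 22 rows, 19 were tested; between EYFP and EGFP cells 13 fell, 0 rose and 6 did not pass, with a median log2 fold change of -5.43 beside 0.01 for all genes, of which 36.2% were called. Their summed level was 648 and 386 CPM in EYFP cells, against 14201 and 18924 CPM in EGFP cells, and 15924 and 28372 CPM in WT cells. Among those past the test, the largest falls were those of Defa5, at -6.88 ± 0.40 with 4.93 and 8.08 CPM in EYFP cells against 619 and 912 CPM in EGFP cells, and Defa-ps1, at -6.35 ± 0.85 with 0.634 and 0 CPM in EYFP cells against 21.3 and 35.5 CPM in EGFP cells (edgeR adjusted p = 0.00018 and 0.00298). Without EYFP 2 the value of Defa-ps1 was -5.47. By their symbols, Defa-ps1 and the untested rows Defa-ps12 and Defa-ps13 are pseudogenes. Without EGFP 1, 2 alpha-defensins passed as higher in EYFP cells.

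Copies of this family divided the EGFP libraries, as Reg3b and Reg3g did. Defa2 was at 618 CPM in EGFP 1 and 29.8 CPM in EGFP 2, Defa20 at 331 CPM and 0, and Defa3 at 237 and 1.94 CPM, while Defa24 was at 4224 and 5498 CPM and Defa17 at 3384 and 5325 CPM. These copies were picked after their values were seen. Near-identical copies of alpha-defensins share reads, so the level of a single copy is uncertain. Between EGFP and WT cells 4 alpha-defensins rose, 2 fell and 13 did not pass, with a median of 0.16, and 1 rose without WT 2 while 4 fell without EGFP 1. Between EYFP and WT cells 0 rose, 12 fell and 7 did not pass, with a median of -5.12; over all genes 41.5% were called in the comparison of EGFP with WT cells and 60.6% in that of EYFP with WT cells.

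**Figure D5:**
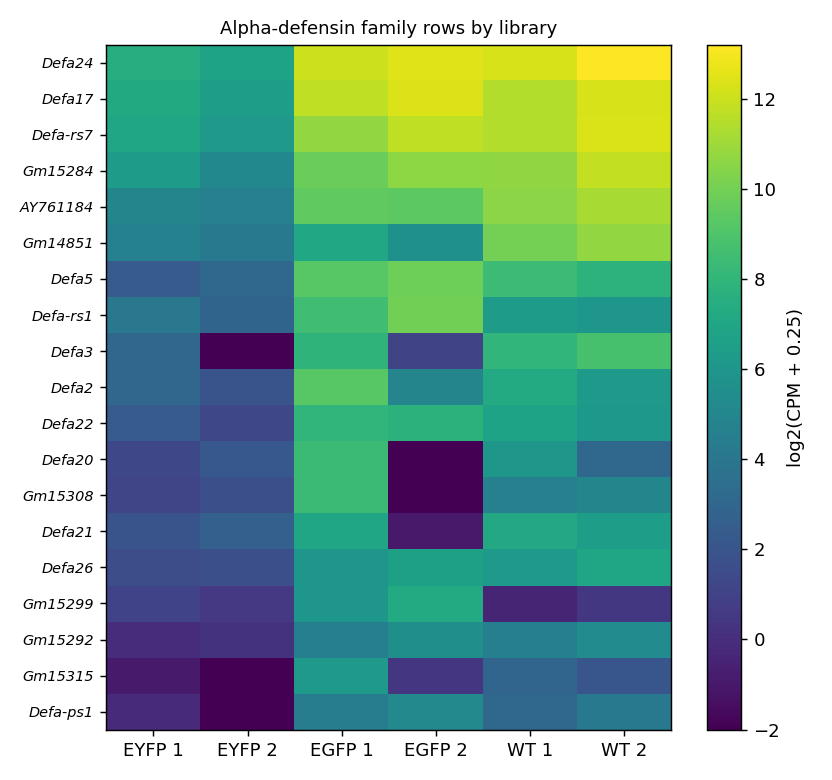
Level of the 19 tested alpha-defensin rows in each of the 6 libraries, as log2(CPM + 0.25), with rows ordered by mean level. Of the 19 rows, 13 fell in EYFP cells relative to EGFP cells, and Defa2, Defa3, Defa20, Defa21, Gm15308 and Gm15315 are bright in EGFP 1 and dark in EGFP 2.

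Among 19 transcription factors, receptors and other products tied to Paneth cells, 9 fell in EYFP cells relative to EGFP cells, 1 rose and 9 did not pass, with a median of -1.14 beside 0.01 for all genes, of which 36.2% were called. Among those past the test, the largest falls were those of Gfi1 and Spdef, zinc finger and ETS factors of the secretory lineage. Gfi1 was at 0.352 and 0.505 CPM in EYFP cells, against 50.8 and 49.4 CPM in EGFP cells (-6.85 ± 0.43; edgeR adjusted p = 0.000175), and Spdef was at 1.76 and 3.45 CPM in EYFP cells, against 276 and 248 CPM in EGFP cells (-6.67 ± 0.47; edgeR adjusted p = 0.00044). The groups did not overlap for either factor. Wnt3, the Wnt ligand that Paneth cells give to stem cells, was at 51.9 and 52.0 CPM in EYFP cells, against 31.4 and 36.6 CPM in EGFP cells (0.61 ± 0.17; edgeR adjusted p = 0.0288), and no longer passed without any one of these 4 libraries, at 0.57 to 0.73. Without EYFP 1, 5 of the list fell. Between EGFP and WT cells 11 of the 19 rose, 1 fell and 7 did not pass, and between EYFP and WT cells 5 rose, 8 fell (5 without EYFP 1) and 6 did not pass, beside 41.5% and 60.6% of all genes called in these comparisons.

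Of 31 symbols of other epithelial antimicrobial genes, 28 had a row and 17 were tested. Between EYFP and EGFP cells 7 fell, 0 rose and 10 did not pass, with a median of -2.34 beside 0.01 for all genes. Of all genes, 36.2% were called in this comparison and 19.4% were lower. Reg4 did not pass but was higher in EYFP cells, at 4123 and 6016 CPM against 1400 and 2459 CPM in EGFP cells. Its log2 fold change was 1.39 ± 0.52 (edgeR adjusted p = 0.0804), and it was named after its values were seen. Zg16, a lectin of goblet cells that binds Gram-positive bacteria, was at 18.4 and 96.5 CPM in EYFP cells, against 8157 and 18287 CPM in EGFP cells (-7.85 ± 1.03; edgeR adjusted p = 0.00272), with values of -7.10 to -9.49 when EYFP 1 or EYFP 2 was left out. Nos2, the inducible nitric oxide synthase, was at 0.775 and 0.589 CPM in EYFP cells, against 9.17 and 15.8 CPM in EGFP cells (-4.17 ± 0.89; edgeR adjusted p = 0.0152), but did not pass without EYFP 1, EYFP 2 or EGFP 2. Without EYFP 1, 4 of the list fell. Between EGFP and WT cells 6 rose, 5 fell and 6 did not pass, and 3 fell without either EGFP library. Between EYFP and WT cells 4 rose, 11 fell and 2 did not pass, beside 41.5% of all genes called between EGFP and WT cells and 60.6% between EYFP and WT cells.

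A list of genes tied to interleukin 22 and Toll-like receptor signalling had a median of 0.00 between EYFP and EGFP cells. It is not limited to inputs of Reg3b and Reg3g, since it also holds Il17ra, Il17rc, Il18 and Fut2. These are RNA levels, and the activity of the pathways was not tested. Of 22 rows, 20 were tested, of which 2 rose, 3 fell and 15 did not pass, beside 36.2% of all genes called in this comparison. Within EGFP cells, Fut2 and Socs3 of this list were higher in EGFP 1 (83.8 and 64.9 CPM) than in EGFP 2 (19.8 and 37.6 CPM). Others, such as Il22ra1 and Il17rc, were higher in EGFP 2. These genes were named after their values were seen, and a link of the list to Reg3b and Reg3g was not tested. Il22ra1, the receptor subunit for interleukin 22, was at 69.2 and 65.3 CPM in EYFP cells, against 60.3 and 104 CPM in EGFP cells, and Stat3 was at 172 and 139 CPM in EYFP cells, against 151 and 118 CPM in EGFP cells. Neither passed the test, and both were named after their values were seen. Jak1, the kinase of that receptor, rose to 275 and 242 CPM in EYFP cells, against 166 and 158 CPM in EGFP cells (0.67 ± 0.15; edgeR adjusted p = 0.0105). Nfkb1, a subunit of NF-kappa-B, was at 140 and 125 CPM in EYFP cells, against 83.6 and 93.0 CPM in EGFP cells (0.59 ± 0.13; edgeR adjusted p = 0.0129). Tlr3, the sensor of double-stranded RNA, fell by 1.21 ± 0.17 and the cytokine gene Il18 fell by 1.20 ± 0.26 (edgeR adjusted p = 0.00185 and 0.00956), and Il18 no longer passed without EYFP 1. Without EYFP 1 neither Jak1 nor Nfkb1 passed and 0 of the list rose; Jak1 also did not pass without EGFP 2, nor Nfkb1 without EGFP 1. Between EGFP and WT cells 3 rose, 8 fell and 9 did not pass; the number that rose was 1 without either EGFP library or WT 1, and the number that fell was 5 without EGFP 1 or WT 2. Between EYFP and WT cells 5 rose, 8 fell and 7 did not pass; the number that rose was 2 to 3 without either EYFP library or WT 2. Over all genes, 41.5% were called between EGFP and WT cells and 60.6% between EYFP and WT cells.

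Markers of other cell types also differed between the groups, in directions that varied with the cell type and the comparison. The summed level of 10 goblet cell markers was 746 and 1808 CPM in EYFP cells, against 56413 and 85663 CPM in EGFP cells, and 4925 and 6590 CPM in WT cells, and 9 of the 10 fell between EYFP and EGFP cells. The 8 enteroendocrine markers summed to 61631 and 46402 CPM in EYFP cells, against 9212 and 13583 CPM in EGFP cells, and 520 and 588 CPM in WT cells, and all 8 rose between EYFP and EGFP cells. The 12 enterocyte markers summed to 1417 and 2417 CPM in EYFP cells, 1569 and 2009 CPM in EGFP cells, and 36090 and 61283 CPM in WT cells, and 1 of the 12 fell between EYFP and EGFP cells while 11 did not pass. Goblet markers (8 of the 10) rose and all 12 enterocyte markers fell between EGFP and WT cells, a comparison in which 7 of the 9 antimicrobial genes did not pass. None of the markers on these 3 lists was at 0 in any library, and the first goblet marker, Muc2, was at 7.96 and 42.1 CPM in EYFP cells, against 4179 and 5144 CPM in EGFP cells, and 523 and 676 CPM in WT cells. The 5 tuft cell markers tested all fell between EYFP and EGFP cells, and 3 of the 4 crypt stem cell markers fell. These marker counts stand beside 36.2% of all genes called in that comparison, of which 16.8% rose and 19.4% fell. For EGFP against WT cells the share of all genes called was 41.5%, with 19.6% rising and 21.9% falling. The 7 T cell markers summed to 14.7 and 19.4 CPM in EYFP cells, 13.0 and 33.1 CPM in EGFP cells, and 482 and 538 CPM in WT cells. The part of these cell types in the levels of the antimicrobial genes was not tested.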

How the data were processed

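RNA was sequenced in 6 libraries of mouse intestinal epithelial cells. Per the labels' protocols, total RNA went through the RNeasy Micro kit into TruSeq RNA libraries, sequenced single-end at 50 bases on a HiSeq2000. The submitters' processing notes name the mm10 build, RSEM 1.3.1, Bowtie2, DESeq2 1.26.0 and FastQC 0.11.8. Their roles, settings and the strand setting are not stated in the sources used here, so reads of a gene and an antisense partner may not be separated.

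The authors deposited estimated counts per gene, which divide reads shared by several genes. The authors' deposited table of comparisons also holds a normalized signal per library, a linear fold and an adjusted p-value, of which the fold and the adjusted p-value are quoted as given. Columns of the EYFP libraries carry the words EGFP and addon, and titles with the word addon gave the match.

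Counts were rounded to whole numbers, filtered with filterByExpr (13935 genes, 58.4%), scaled with TMM and fitted in 1 edgeR 4.0.16 model of 3 group means (quasi-likelihood F test, robust; R 4.3.3), with 3 residual degrees of freedom. Benjamini-Hochberg adjustment ran over all genes tested, with a threshold of 0.05. The biological coefficient of variation was 19.8%. CPM used library totals scaled by TMM factors, and the SE of a log2 fold change comes from its F value. Total counts of 7938358 to 20589683 make 3 counts equal 0.181 to 0.362 CPM. Coordinates come from GENCODE and promoters from RefSeq, both of the mm10 assembly.

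Alternatives were the DESeq2 1.42.0 Wald test, DESeq2 size factors, TMM factors that leave out the 50 most abundant genes, a minimum of 10 counts, no filter, a fit to 4 libraries only, a block for the replicate number, and leaving out each library in turn. A lone library was taken to vary as the other groups do. Members and lists were chosen with earlier results of these data known. All 9 members are named, with the 2 largest rises and the 2 largest falls past the test between EYFP and EGFP cells in each list and the 3 genes nearest to each member in pattern, except those of Mmp7, which are not reported here. Other genes were named after their values were seen.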

Additional observations from a re-analysis of the deposited data

How the results depend on the processing

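Of 351 fold changes of the 9 genes under an alternative, 315 kept their direction and their side of the threshold, 13 gained and 11 lost the call, and 12 changed direction. Genes called between EYFP and EGFP cells numbered 5045, and 2453 to 5557 when 1 library was left out. Leaving out 1 library gave 1 to 2 antimicrobial genes called higher and 0 to 1 called lower between EGFP and WT cells, and with no filter on low counts 1 was called higher. Apart from Mptx2 with the replicate block, the changes of direction came when 1 library was left out, for genes that had not passed: between EYFP and EGFP cells Lyz2 ranged over -6.40 to 7.72, and between EYFP and WT cells over -3.88 to 6.30. Between EGFP and WT cells the ranges were -0.21 to 0.36 for Lyz1, -2.42 to 3.58 for Lyz2, -0.67 to 0.76 for Mptx2, -1.61 to 0.96 for Ang4, -0.20 to 0.73 for Itln1, -2.36 to 2.35 for Reg3b and -0.76 to 3.14 for Reg3g. With the replicate block, Mptx2 was at 0.053 between EGFP and WT cells, and Ang4 lost its calls between EYFP and EGFP cells (edgeR adjusted p = 0.0944) and between EYFP and WT cells (0.0594). Without the filter Ang4 also lost the call between EYFP and EGFP cells (edgeR adjusted p = 0.0951). Replicate differences correlated across genes at 0.0143 to 0.0964 between groups. Such correlations cannot show whether the replicate numbers pair the libraries, which is not known. DESeq2 size factors moved the median log2 fold change of all genes between EYFP and WT cells to -0.01, beside -0.12. The cause of these changes was not tested. With 2 libraries a group, a gene whose libraries lie far apart, such as Reg3b, Reg3g, Lyz2 and Ang4, has a wide error, and Lyz2 rests on 2 to 4 counts in EYFP 2 and EGFP 1.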
